A study of Homo sapiens with 6 samples.

Results

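The transcripts of 10 genes of iron uptake, storage, sensing and export were examined in HEK293 cells given minocycline. They were chosen by name, as genes whose Ensembl identifier maps to the symbols TFRC, FTH1, FTL, IREB2, ACO1, SLC11A2, SLC40A1, NCOA4, SLC25A37 and STEAP3. Of these 10 genes, 9 were found by symbol among the 57820 rows of the gene count table. NCOA4, the receptor that delivers ferritin to the lysosome, was not matched by its identifier and was not analysed here. The question was whether the abundance of these mRNAs differed after a tetracycline, a class of drug that binds metal ions.

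HEK293 is an established line of human embryonic kidney cells. The minocycline group held 3 libraries from cells kept for 12 h with 100 µM minocycline, and the control group held 3 libraries from cells kept for 12 h with the vehicle, dimethyl sulfoxide. Both groups were harvested without heat shock. The labels number the replicates 1, 2 and 3 in each group and give the same number as the batch. They do not give separate passages or cultures, but the series describes the replicates as biological. Total RNA was sequenced, and the total count per library was 17303180 to 17830320 with minocycline and 17395826 to 17835756 in controls. The neurofilament genes NEFM and INA, known in this line, had 1262 to 1535 and 416 to 468 counts with minocycline, and 1159 to 1556 and 328 to 390 counts in controls. The kidney lineage gene PAX2 had 48 to 93 counts with minocycline and 66 to 74 in controls. The leukocyte gene PTPRC had at most 3 counts in any library, and the globin genes HBB and HBA1 at most 1 and 10. COL1A1, listed as a fibroblast marker, had 927 to 1288 counts with minocycline and 1219 to 1428 in controls, so that this marker was not absent.

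Cells take up iron bound to transferrin through the transferrin receptor, reduce it in the endosome, and carry it into the cytosol, where it is used, stored in ferritin or sent out through ferroportin. When iron is scarce, the iron regulatory proteins IRP1 and IRP2 bind hairpins called iron-responsive elements. Binding in the 3′ UTR of the transferrin receptor mRNA protects that mRNA from decay, so its abundance rises. Binding in the 5′ UTR of the ferritin and ferroportin mRNAs blocks translation, which total RNA does not measure. The receptor mRNA is therefore the member whose abundance is best known to follow iron.

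The hairpin letters are shown for 5 mRNAs on which the regulatory proteins are known to act, although many other transcripts hold such letters. The canonical transcripts of the 9 genes were searched on the sense strand for the letters CNNNNNCAGTGN followed by 5 bases, where the C is the bulged base, CAGTGN is the loop, and the 5 bases on either side of the loop can pair (A with T, G with C or T). All 5 pairs were possible at 4 places in TFRC and at 1 place each in FTH1, FTL and SLC40A1. SLC11A2 had 1 place with 4 of 5 pairs. Each stretch below has 30 bases, runs 5′ to 3′ in DNA letters, and has the bulged C and the loop in capitals. The coordinates and bases are those of GRCh37, whose chromosomes are those of hg19.
TFRC 3′ UTR, transcript base 3295, chr3:195777849-195777878, minus strand: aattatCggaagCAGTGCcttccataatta
TFRC 3′ UTR, transcript base 3699, chr3:195777445-195777474, minus strand: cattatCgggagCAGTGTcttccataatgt
TFRC 3′ UTR, transcript base 3764, chr3:195777380-195777409, minus strand: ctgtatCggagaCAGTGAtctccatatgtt
TFRC 3′ UTR, transcript base 3811, chr3:195777333-195777362, minus strand: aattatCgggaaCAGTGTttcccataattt
SLC11A2 3′ UTR, transcript base 1833, chr12:51382051-51382080, minus strand: agccatCagagcCAGTGTgtttctatggtt
FTH1 5′ UTR, transcript base 39, chr11:61735045-61735074, minus strand: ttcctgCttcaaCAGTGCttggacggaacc
FTL 5′ UTR, transcript base 33, chr19:49468592-49468621, plus strand: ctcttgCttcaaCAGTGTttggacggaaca
SLC40A1 5′ UTR, transcript base 104, chr2:190445386-190445415, minus strand: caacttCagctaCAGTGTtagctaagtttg

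The FTH1 and FTL stretches had the same base at 26 of 30 positions, while the 6 pairs among the TFRC stretches shared 19 to 25 of 30. FTH1 and the TFRC stretches shared 9 to 11 of 30. The C and the CAGTG are in all of these counts because the search required them. Of 20274 protein-coding canonical transcripts, 260 (1.28%) held the letters with 5 of 5 pairs, and 1990 (9.82%) held them with at least 4 of 5. ACO1 and IREB2 also had 1 place each with 4 of 5 pairs in the 3′ UTR, as SLC11A2 did. These matches describe letters and do not show binding. TFRC and SLC11A2 thus carry their matches in the 3′ UTR, and FTH1, FTL and SLC40A1 in the 5′ UTR.

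None of the 9 iron genes differed between minocycline and control cells past the threshold, a Benjamini-Hochberg adjusted p under 0.05 in edgeR's quasi-likelihood test over 17225 genes. That threshold was passed by 0.0522% of all genes tested (9 genes, STC2 with the smallest p). Of the 9 iron genes, 4 had a higher and 5 a lower fitted level, with a median log2 fold change of -0.01, against 0.01 over all genes tested. At an unadjusted p under 0.05 the count among the 9 was 0, where 4.7% of all genes passed. DESeq2, which called 0.19% of all genes, and limma-voom, which called 0.0639%, also gave 0 calls among the 9. The minocycline and control libraries overlapped in all 9. They did not overlap in 9.31% of all genes, so a count of 0 among 9 does not set these genes apart. All 9 passed the filter on low counts. In bulk RNA, fewer expressing cells and less RNA per cell cannot be told apart. Levels below are in CPM, the gene's share of the library's counts, scaled by trimmed mean of M-values (TMM) factors, and fold changes are minocycline over control.

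**Figure D1:**
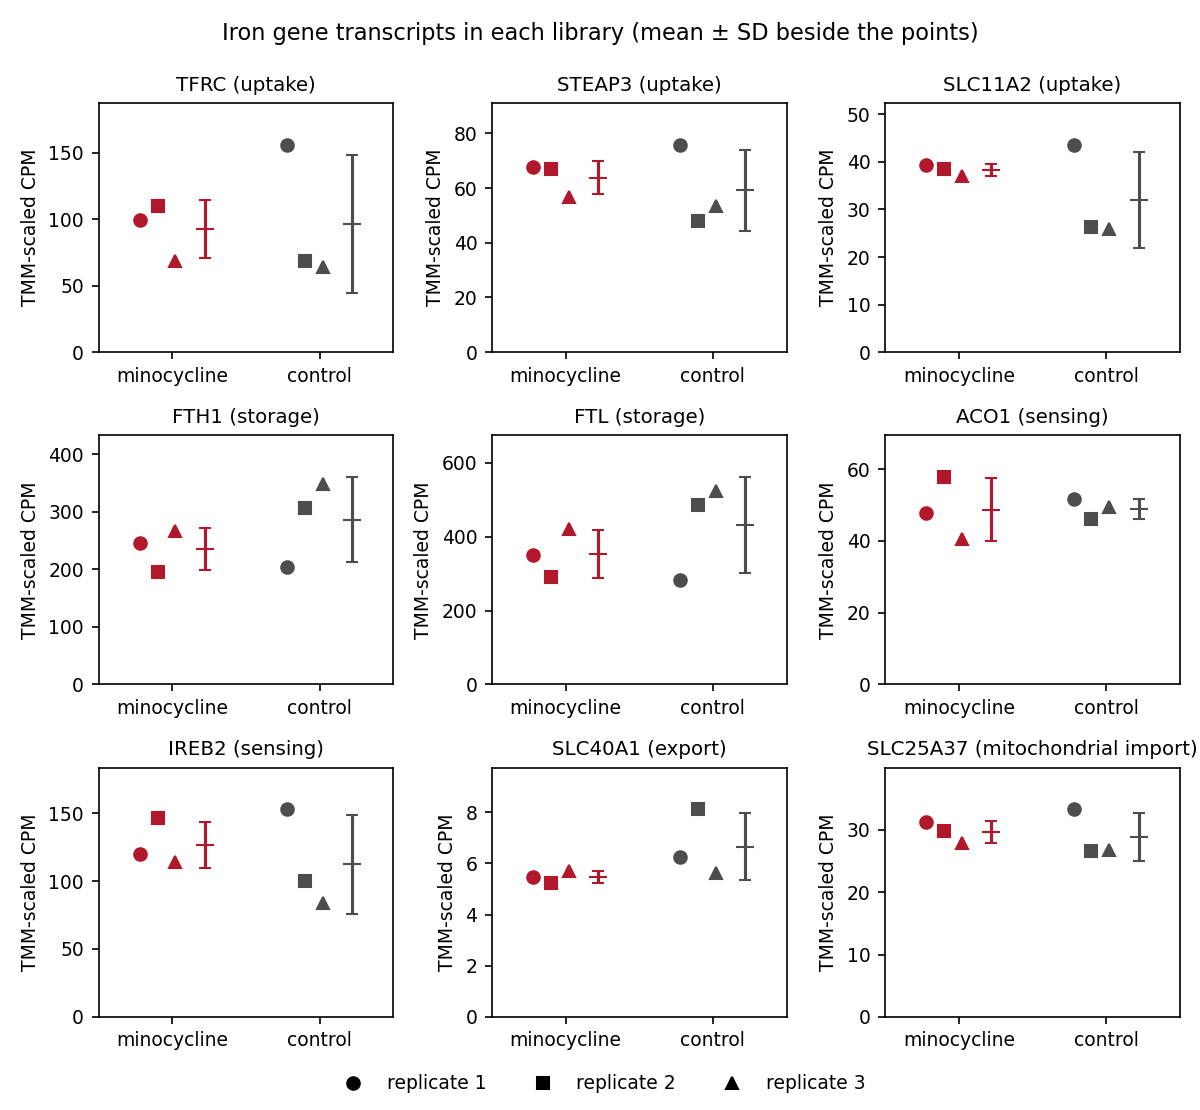
Level of each iron gene in every library, in TMM-scaled CPM from 0, with minocycline libraries left of control libraries, the replicate number as the marker, and the mean ± SD (n = 3) beside the points. Control replicate 1 is the highest control library for TFRC, STEAP3, SLC11A2, ACO1, IREB2 and SLC25A37 and the lowest for FTH1 and FTL, and the groups overlap in all 9 panels.

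TFRC encodes transferrin receptor 1, which brings iron-loaded transferrin into the cell. Its level was 99.1, 110 and 68.6 CPM in minocycline replicates 1, 2 and 3, and 156, 68.5 and 63.8 CPM in control replicates 1, 2 and 3. Control replicate 1 stood above every other library, while minocycline replicate 3 lay beside control replicates 2 and 3. The mean was 92.6 ± 21.5 CPM with minocycline and 96.1 ± 52.0 CPM in controls (SD, n = 3 each), a log2 fold change of -0.05 ± 0.33 (SE; adjusted p = 0.969 in edgeR's test). The 95% interval of the fold ran from 0.578 to 1.61, so that a rise by more than 1.61-fold lies outside it and smaller changes in either direction do not. Within batches 1, 2 and 3 the log2 difference was -0.65, 0.68 and 0.10, and its sign thus differed between batches. With 1 surrogate variable in the model the log2 fold change of TFRC was -0.40 ± 0.10 (unadjusted p = 0.00117, adjusted p = 0.149 in edgeR's test), and without control replicate 1 it was 0.48 ± 0.16.

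STEAP3 encodes the endosomal reductase that turns ferric into ferrous iron after uptake. Its level was 67.9, 67.0 and 56.8 CPM with minocycline and 75.9, 48.0 and 53.6 CPM in controls, again with control replicate 1 the highest. The log2 fold change was 0.11 ± 0.18 (edgeR adjusted p = 0.893). STEAP3-AS1, on the opposite strand, had 3 to 4 counts with minocycline and 0 to 10 in controls, where STEAP3 had 994 to 1242 and 804 to 1397.

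SLC11A2 encodes the divalent metal transporter DMT1, which carries ferrous iron out of the endosome. Its level was 39.4, 38.4 and 37.0 CPM with minocycline and 43.6, 26.4 and 26.0 CPM in controls. The minocycline libraries lay close together, between control replicate 1 and the other 2 control libraries. The log2 fold change was 0.26 ± 0.21 (edgeR adjusted p = 0.825), and the 95% interval of the fold was 0.867 to 1.65. The count is a sum over transcripts with and without the hairpin shown above, which the table does not separate.

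FTH1 encodes the ferritin heavy chain, which oxidises iron for storage. Its level was 246, 195 and 266 CPM with minocycline and 204, 307 and 348 CPM in controls. Minocycline replicate 2 and control replicate 1 were the lowest libraries, and control replicates 2 and 3 the highest. The mean was 236 ± 36.5 CPM with minocycline and 286 ± 74.2 CPM in controls, a log2 fold change of -0.28 ± 0.21 (edgeR adjusted p = 0.820). FTL, the light chain that helps form the iron core, had 349, 290 and 420 CPM with minocycline and 282, 486 and 524 CPM in controls. Its libraries fell in nearly the same order as those of FTH1, and its log2 fold change was -0.29 ± 0.23 (edgeR adjusted p = 0.826). The 95% interval of the fold was 0.598 to 1.13 for FTH1 and 0.568 to 1.18 for FTL.

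The ratio of the light chain mRNA to the heavy chain mRNA of ferritin was steady. FTL had 1.42, 1.49 and 1.58 counts per FTH1 count in minocycline replicates 1, 2 and 3, and 1.39, 1.59 and 1.51 in control replicates 1, 2 and 3. The log2 difference of 0.002 was smaller than the pooled SD of 0.088. Both genes have near-identical processed copies, to which the counting could assign reads. The 25 annotated FTH1 pseudogenes held 49 to 71 counts in all with minocycline and 61 to 73 in controls, and the 16 FTL pseudogenes held 15 to 19 and 3 to 13. With these counts added the log2 fold change was -0.28 for FTH1 and -0.29 for FTL. The counter is not given, and reads that match both a gene and a copy may be in neither count, which these sums cannot show. BEST1, on the opposite strand, overlaps FTH1 in the annotation and had 79 to 111 counts with minocycline against 32 to 44 in controls (log2 fold change 1.28 ± 0.26, edgeR adjusted p = 0.292). Its counts were 2.2% to 2.45% of those of FTH1 with minocycline and 0.765% to 0.854% in controls. The sources used here do not say whether counting used strand, so reads of the overlap cannot be told apart.

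ACO1 encodes IRP1, which is a cytosolic aconitase when it holds an iron-sulfur cluster and an RNA-binding protein when it does not. Its level was 47.9, 57.9 and 40.5 CPM with minocycline and 51.6, 46.1 and 49.4 CPM in controls, so that the minocycline libraries bracketed the controls. The log2 fold change was -0.01 ± 0.15 (edgeR adjusted p = 0.993), with a 95% interval of the fold of 0.782 to 1.27. IREB2 encodes IRP2, whose activity is set by protein degradation. Its level was 120, 146 and 114 CPM with minocycline and 153, 100 and 83.8 CPM in controls. As for TFRC, control replicate 1 was the highest library, and the log2 fold change of 0.17 ± 0.22 did not pass (edgeR adjusted p = 0.857).

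SLC40A1 encodes ferroportin, the exporter of ferrous iron from cells. It had the lowest level of the 9, with 5.46, 5.22 and 5.71 CPM with minocycline and 6.25, 8.12 and 5.62 CPM in controls. Behind these values stood 96 to 100 counts with minocycline and 93 to 136 in controls, and the log2 fold change was -0.29 ± 0.20 (edgeR adjusted p = 0.820). It was -0.12 without control replicate 2, the highest library, and -0.40 without control replicate 3. SLC25A37 encodes mitoferrin 1, which carries iron into mitochondria and is known best from red cell precursors. Its level was 31.3, 29.8 and 27.8 CPM with minocycline and 33.3, 26.6 and 26.8 CPM in controls. The minocycline libraries lay inside the range of the controls, and the log2 fold change was 0.04 ± 0.15 (edgeR adjusted p = 0.956).

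**Figure D2:**
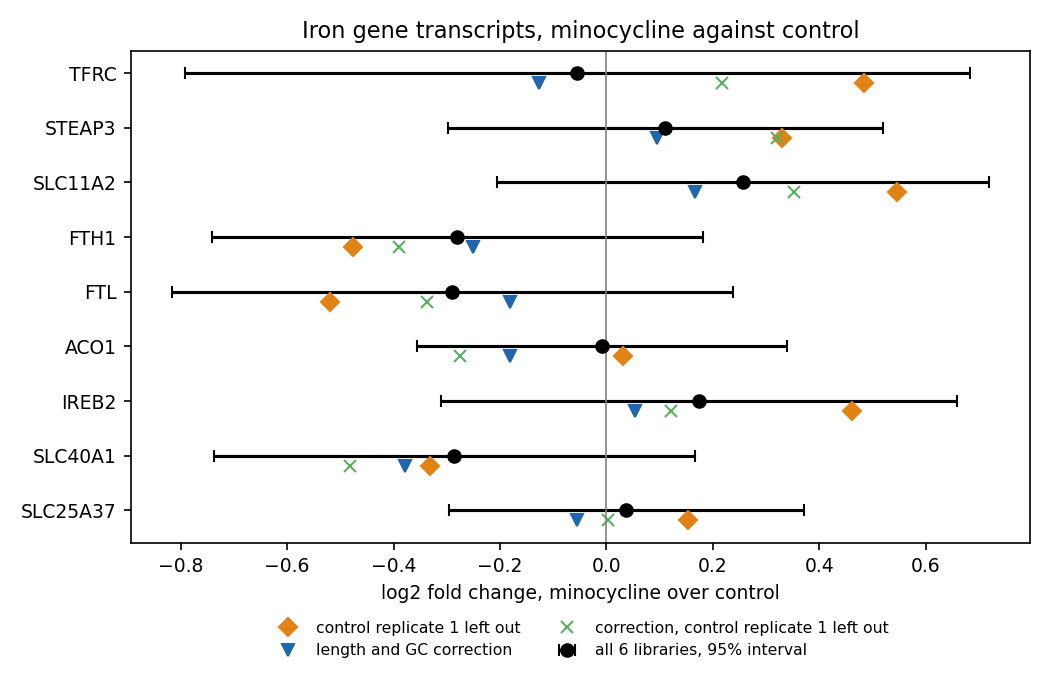
Log2 fold change of each iron gene, minocycline over control, with its 95% interval from edgeR on all 6 libraries (black), and the value with control replicate 1 left out, with a correction for transcript length and GC content, and with both. Every black interval spans 0, while the values without control replicate 1 lie farther from 0 for TFRC (0.48), SLC11A2 (0.55), IREB2 (0.46), FTH1 (-0.48) and FTL (-0.52).

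Per kilobase of canonical transcript, the ferritin mRNAs were by far the most abundant of the 9. FTL averaged 405 ± 74.5 CPM per kilobase with minocycline and 495 ± 149 in controls, and FTH1 averaged 196 ± 30.3 and 238 ± 61.7. IREB2, TFRC and STEAP3 followed at 20.0 ± 2.72, 18.5 ± 4.30 and 15.0 ± 1.44 CPM per kilobase with minocycline and 17.7 ± 5.71, 19.2 ± 10.4 and 13.9 ± 3.47 in controls, and neighbours in this order did not differ beyond their spread. SLC11A2, ACO1 and SLC25A37 lay lower, at 9.26 ± 0.29, 6.55 ± 1.17 and 6.35 ± 0.37 with minocycline and 7.75 ± 2.44, 6.59 ± 0.37 and 6.18 ± 0.82 in controls. ACO1 and SLC25A37 did not differ beyond their spread in either group, nor did SLC11A2 and ACO1 in controls. SLC40A1 was the least abundant at 1.64 ± 0.07 with minocycline and 2.00 ± 0.39 in controls. These levels assume the length of the canonical transcript, which need not be the form present.

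The ratio of TFRC to FTH1 counts varied between libraries in an order that crossed the groups. TFRC had 0.403, 0.565 and 0.258 counts per FTH1 count in minocycline replicates 1, 2 and 3, and 0.766, 0.223 and 0.183 in control replicates 1, 2 and 3. The highest and the lowest ratio were thus both in controls. The log2 difference of the ratio, minocycline minus control, was 0.30, below the pooled SD of 0.89, and within batches 1, 2 and 3 it was -0.93, 1.34 and 0.49. A ratio needs no scaling between libraries, but it does not show an equal change of both genes. It also does not remove a difference between libraries that depends on transcript length.

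The counts in protein-coding transcripts of 4000 bases or more (5474 genes), divided by those in transcripts under 1500 bases (1742 genes), were 1.92, 2.23 and 1.46 in minocycline replicates 1, 2 and 3, and 2.26, 1.30 and 1.15 in control replicates 1, 2 and 3. The libraries fell in the same order by this ratio as by TFRC per FTH1. The levels of ACO1, lowest in minocycline replicate 3, and of SLC40A1, highest in control replicate 2, did not follow that order. The canonical transcript has 5012 bases for TFRC and 6324 for IREB2, and 1203 for FTH1 and 871 for FTL. Under a correction for transcript length and GC content the log2 fold change was -0.13 for TFRC, 0.05 for IREB2, -0.25 for FTH1 and -0.18 for FTL, with none of the 9 iron genes past the threshold (31 genes, or 0.188%, passed in all).

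**Figure D3:**
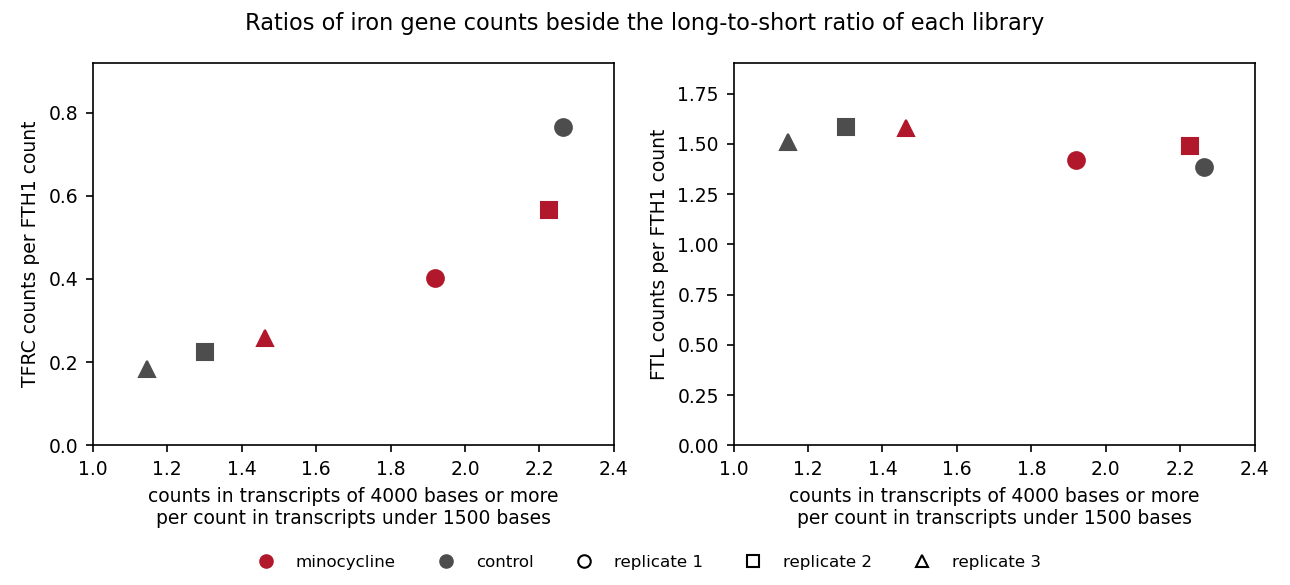
TFRC counts per FTH1 count (left) and FTL counts per FTH1 count (right) in each library, against the counts in long transcripts per count in short ones, with minocycline in red, control in grey and the replicate number as the marker. TFRC per FTH1 runs from 0.183 to 0.766 in the same library order as the long-to-short ratio, while FTL per FTH1 stays between 1.39 and 1.59.

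Whether any iron gene passed rested on control replicate 1. Without control replicate 1, SLC11A2 (log2 fold change 0.55, edgeR adjusted p = 0.0129), IREB2 (0.46, 0.0275) and TFRC (0.48, 0.0479) were called higher, and FTL (-0.52, 0.0212) and FTH1 (-0.48, 0.0244) were called lower. In that setting 17.9% of all genes tested were called, 9.52% as higher and 8.34% as lower, so a call there is common. Among protein-coding transcripts of 4000 bases or more, the class of SLC11A2, IREB2 and TFRC, 19.7% were called higher and 1.78% lower. Among those under 1500 bases, the class of the ferritin genes, 34.7% were called lower and 1.3% higher. With the correction for length and GC content as well, 19.9% of all genes were called. SLC11A2 (0.35, adjusted p = 0.0193), STEAP3 (0.32, 0.0214), FTH1 (-0.39, 0.0133) and FTL (-0.34, 0.0299) were then among them, and TFRC (0.22, 0.306) and IREB2 (0.12, 0.344) were not. After that correction transcripts under 1500 bases still had a median log2 fold change of -0.23, with 31.2% called lower and 3.9% higher. Those of 4000 bases or more, the class of SLC11A2 and STEAP3, had a median of -0.005, with 9.54% called higher and 10.5% lower.

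The wider set comprised 100 genes in 10 lists, of which 83 were tested. Of the 83, 1 passed the threshold, where 0.0522% of all genes tested passed. Without control replicate 1, 17.9% of all genes tested were called, 9.52% as higher and 8.34% as lower. Of the 83 listed genes tested, 12 were then called higher and 21 lower. Among them were 5 of the 8 uptake genes, called higher, and 9 of the 22 iron-sulfur genes, called lower. In that setting 19.7% of all protein-coding transcripts of 4000 bases or more were called higher, and 34.7% of those under 1500 bases lower. With all 6 libraries, of the 83 tested, 33 had a higher and 50 a lower fitted level, with a median log2 fold change of -0.10. At an unadjusted p under 0.05 in edgeR's test there were 3 higher genes and 1 lower gene. The shares over all genes tested were 2.72% higher and 1.97% lower. The groups did not overlap in 8 of the 83, beside the 9.31% of all genes tested. The lists were drawn up by function, with earlier results of these data known. Names below are among the genes outside the 9 with the smallest p of their list.

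Among 8 tested genes of iron uptake, 7 had a higher fitted level and 0 passed, with a median log2 fold change of 0.26. Of all genes tested, 52.1% had a higher fitted level. Protein-coding transcripts of 4000 bases or more, the class of TFRC, STEAP3 and SLC11A2, had a median of 0.09. SLC39A14 and SLC39A8, metal transporters of the ZIP family, had log2 fold changes of 0.56 ± 0.32 and 0.28 ± 0.25, and the metalloreductase gene STEAP2 had 0.31 ± 0.30 (edgeR adjusted p of 0.820 to 0.840). The median of the uptake list was 0.05 with 1 surrogate variable, 0.15 with the length and GC correction and 0.61 without control replicate 1. TFR2, STEAP4, HFE, TF, LTF, SCARA5 and LCN2 fell below the filter on low counts, with at most 12 counts in any library.

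Among 6 tested genes of storage and ferritin turnover, 4 had a lower fitted level and 0 passed (median log2 fold change -0.16). The iron chaperone genes PCBP1 and PCBP2, which load ferritin, had log2 fold changes of -0.22 ± 0.15 and -0.10 ± 0.18. HERC2, a ubiquitin ligase gene, had 0.10 ± 0.21. Of 5 tested genes of iron sensing, 3 had a lower fitted level and 0 passed (median -0.01, and -0.28 with the length and GC correction and control replicate 1 left out). FBXL5, the iron-binding adaptor that sends IRP2 for degradation, averaged 30.7 ± 1.9 CPM with minocycline and 37.6 ± 6.4 CPM in controls, a log2 fold change of -0.29 ± 0.16 (edgeR adjusted p = 0.820). SKP1 and CUL1, the core of its ubiquitin ligase, had -0.20 ± 0.16 and 0.04 ± 0.13.

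Of 4 tested genes of iron export and its hormonal control, 2 had a higher fitted level and 0 passed (median -0.02). BMP6, a growth factor that acts upstream of hepcidin, had a log2 fold change of 0.32 ± 0.20, TMPRSS6, a protease that curbs hepcidin, had -0.36 ± 0.23, and the heme exporter gene FLVCR1 had 0.24 ± 0.25. HAMP, the hepcidin gene, had at most 4 counts in any library. Other mRNAs with a reported iron-responsive element also gave 0 calls among 5 tested (2 higher, 3 lower, median -0.09). Among them PFN2, a profilin gene, had a log2 fold change of -0.19 ± 0.14, and CDC42BPA, a kinase gene, had 0.19 ± 0.16.

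Genes that use iron in mitochondria did not pass either. Of 7 tested genes of mitochondrial iron import and export, 4 had a higher fitted level and 0 passed (median 0.04). ABCB10, a transporter of the inner membrane known in mouse cells to bind mitoferrin 1, averaged 74.9 ± 3.7 CPM with minocycline and 56.1 ± 15 CPM in controls (log2 fold change 0.42 ± 0.18, edgeR adjusted p = 0.820).

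Of 22 tested genes of iron-sulfur cluster assembly, 17 had a lower fitted level and 0 passed (median log2 fold change -0.18), where 47.9% of all genes tested had a lower fitted level. NUBP1 and NUBP2, the cytosolic scaffold pair, had -0.40 ± 0.18 and -0.33 ± 0.17, and ISCA1 had -0.28 ± 0.13 (edgeR adjusted p = 0.820 for each). The median of this list was -0.06 with 1 surrogate variable, -0.17 with the length and GC correction and -0.31 without control replicate 1. With all 6 libraries and no correction, all tested protein-coding transcripts under 1500 bases had a median of -0.22. Those of 4000 bases or more had 0.09. Of 8 tested genes of heme synthesis, 6 had a lower fitted level and 0 passed (median -0.08), among them UROS (-0.25 ± 0.21) and UROD (-0.22 ± 0.18), enzymes of consecutive steps.

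Of 7 tested genes of heme breakdown and transport, 3 had a higher fitted level and 0 passed (median -0.01). Without control replicate 1 the median was -0.27 and 3 of them were called lower, where 8.34% of all genes tested were called lower. The lysosomal heme transporter gene SLC48A1 averaged 37.5 ± 0.94 CPM with minocycline and 29.8 ± 3.2 CPM in controls (log2 fold change 0.33 ± 0.14, edgeR adjusted p = 0.820). Its groups did not overlap, as in 8 of the 83 listed genes tested and 9.31% of all genes tested. HMOX2, the constitutive heme oxygenase, had -0.33 ± 0.15, and BLVRB, a biliverdin reductase, had -0.65 ± 0.32.

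Iron chelators are known to raise a set of targets of the hypoxia-inducible factors, since the enzymes that mark these factors for destruction need iron. Of 11 tested genes of this set, 4 had a higher and 7 a lower fitted level (median -0.10), and VEGFA alone passed. The set was chosen with earlier results of these data known, and the cause of the VEGFA difference was not tested. VEGFA averaged 109 ± 7.7 CPM with minocycline and 54.1 ± 5.7 CPM in controls (log2 fold change 1.01 ± 0.13, edgeR adjusted p = 0.0488), and it passed in 11 of 18 alternatives. RLE or library size scaling ended the call, as did leaving out minocycline replicate 1, 2 or 3 or control replicate 2 or 3, while its log2 fold change was at least 0.946 in all 18 alternatives. EGLN3, an oxygen-sensing hydroxylase gene, averaged 11.2 ± 1.3 CPM with minocycline and 15.3 ± 1.1 CPM in controls (log2 fold change -0.46 ± 0.16, edgeR adjusted p = 0.820). P4HA1, a collagen hydroxylase gene, had 0.53 ± 0.25 (edgeR adjusted p = 0.820). With all 6 libraries in edgeR's test none of the other 10 genes of the set was called. Without control replicate 1, where 17.9% of all genes tested were called, P4HA1 was called higher and EGLN3 lower. With the length and GC correction added, where 19.9% were called, both were called again. Each of these 2 genes passed in 2 of 18 alternatives, both without control replicate 1.

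**Figure D4:**
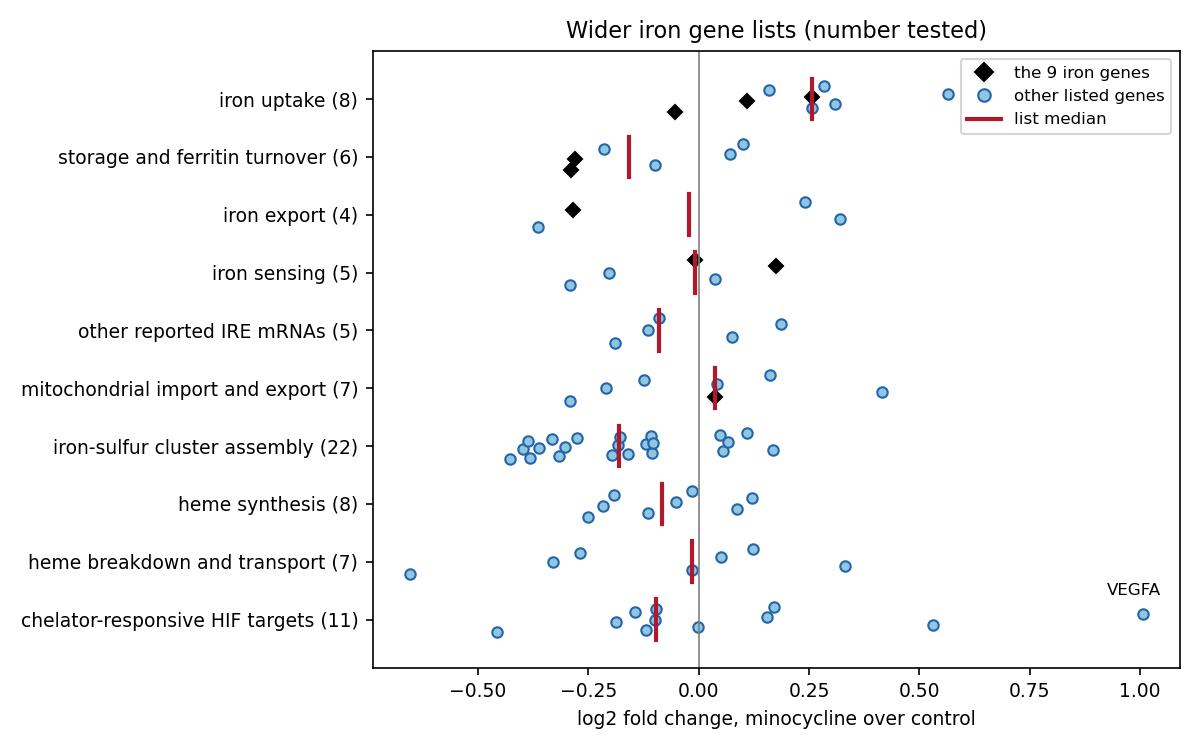
Log2 fold change, minocycline over control, of the tested genes in each of the 10 lists, with the 9 iron genes as black diamonds, other genes as blue circles and the list median as a red line. List medians lie between -0.18 (iron-sulfur cluster assembly) and 0.26 (iron uptake), and VEGFA at 1.01 is the gene past the threshold.

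The minus-strand genes among the 9 are TFRC (ENSG00000072274.8; GRCh37, chromosome 3, 195739382 to 195809024), SLC11A2 (chromosome 12, 51373184 to 51422349), FTH1 (chromosome 11, 61727190 to 61735106) and SLC40A1 (chromosome 2, 190425316 to 190448484). The plus-strand genes are STEAP3 (chromosome 2, 119981407 to 120023228), FTL (chromosome 19, 49468566 to 49470136), ACO1 (chromosome 9, 32384601 to 32454767), IREB2 (chromosome 15, 78729773 to 78793795) and SLC25A37 (chromosome 8, 23386469 to 23432976). The annotation lists each of them as protein-coding, and a count sums over the whole gene.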

How the data were processed

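The authors deposited whole-number gene counts for 6 libraries, with no normalization. Per the submitters' processing notes the build was hg19. Aligner, counter, annotation and strand use are not given in the sources used here. Symbols came from a table of gene names (55538 of 57820 identifiers matched), and positions and lengths from GENCODE mapped to GRCh37.

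Genes were filtered with filterByExpr, scaled with TMM factors and tested with edgeR 4.0.16 (glmQLFit, glmQLFTest, R 4.3.3), with treatment as the single term and Benjamini-Hochberg adjustment over all genes. The standard error is the log2 fold change divided by the square root of F. The test was checked on simulated counts, drawn independently for each gene and so without a trend shared by the genes of a library. The members and lists were chosen with earlier results of these data known. All members were named, and for each list the 3 other genes with the smallest p and any past the threshold. Some genes that this rule selects are not reported here.

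Alternatives were DESeq2 1.42.0, limma-voom (limma 3.58.1), scaling by RLE or upper-quartile factors or library size, no filter, at least 10 counts in every library, the replicate number as a block, 1 surrogate variable (sva 3.50.0), added pseudogene counts, and each library left out. Splines (4 degrees of freedom) for length and GC content, alone, with the block or without control replicate 1, were added after seeing the data. The pairing rests on the batch label. Deviations from the group means correlated at -0.05, -0.29 and 0.30 in same-numbered pairs 1, 2 and 3. Pairs with unlike numbers ran from -0.42 to 0.50, so these values do not set the same-numbered pairs apart.

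Within groups, chi-square over its degrees of freedom was 6.50 to 74.3 between libraries, so none repeated another. Precision is limited by spread between libraries.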

Additional observations from a re-analysis of the deposited data

How the results depend on the processing

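Of 18 alternatives, 16 gave 0 iron genes past the threshold. Leaving out libraries in turn gave 0 to 5 iron genes and 1 to 3154 genes in all, with 5 and 3154 without control replicate 1, and 4 and 3368 when the length and GC correction was added to that omission. The genes past the threshold in all were 47 with DESeq2, 94 with no filter on low counts, 91 with 1 surrogate variable, 31 with the length and GC correction and 38 with that correction and the replicate block. With the replicate block alone 13 genes passed and no iron gene did, so the pairing changed no call among them. The cause of these differences was not tested.

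The direction of several uncalled changes turned. TFRC had a log2 fold change of 0.041 with limma-voom, 0.043 with the replicate block and 0.22 with the correction and control replicate 1 left out. With 1 surrogate variable STEAP3 (-0.059), FTH1 (0.0081), FTL (0.062), IREB2 (-0.063) and SLC25A37 (-0.061) turned. ACO1 had 0.064 with library size alone, and SLC25A37 had -0.055 with the correction and -0.053 with the correction and the block. As libraries were left out in turn, the value ran from -0.29 to 0.48 for TFRC, -0.020 to 0.33 for STEAP3, -0.15 to 0.10 for ACO1, -0.0068 to 0.46 for IREB2 and -0.023 to 0.15 for SLC25A37. SLC11A2 and SLC40A1 kept their direction in all 18 alternatives. Leaving out libraries in turn, SLC40A1 ran from -0.40 to -0.12.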
